A study of Mus musculus with 16 samples.

Results

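The Nkx homeobox genes examined here were Nkx1-1, Nkx1-2, Nkx2-1, Nkx2-2, Nkx2-3, Nkx2-5, Nkx2-9, Nkx3-2, Nkx6-1 and Nkx6-2, which are 10 of the 22232 protein-coding gene names of the GENCODE M1 annotation of the mouse genome (mm9). They were chosen by name, with earlier results of these data known. Every peak was assigned to a gene whose promoter window or gene body held its centre. The promoter window lay within 2500 bp of an annotated start. Window and body together are called the locus of the gene below. Nkx2-4, Nkx2-6 and Nkx6-3, which are not among them, were used for comparison.

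Chromatin immunoprecipitation and sequencing was performed on mouse embryonic stem cells (ES) and on neural precursor cells (NPC) taken at day 6 of neural differentiation in suspension. The ES were the line 46C, which carries a green fluorescent reporter at Sox1, grown on feeder fibroblasts with LIF and 2 kinase inhibitors. Monoubiquitinated histone H2A (H2AK119ub1) and trimethylated histone H3 (H3K27me3) were mapped in wild type cells and in cells labelled shPCGF5 (PCGF5-depleted below), which express a short hairpin RNA against PCGF5 from a lentivirus and were picked as clones. PCGF5 itself was mapped through a Flag tag knocked in at Pcgf5, in ES and in NPC labelled wild type. These were 8 histone peak lists and 2 Flag-PCGF5 lists from 10 libraries, with 1 library per group, and the 6 input libraries were not used here.

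Without replicates, no test between conditions was possible, and every difference below is a description of these libraries. The intervals given are 95% Wilson intervals and cover counting error only. The histone lists held 3845 to 14759 peaks and the Flag-PCGF5 lists 653 in ES and 12013 in NPC. The files held no read totals, so the depth is unknown, and a gene without a peak is one where none was called, which does not show that the mark was absent.

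Nkx proteins bind DNA through a homeodomain and set cell identity in the embryo. Nkx2-2, Nkx2-9, Nkx6-1 and Nkx6-2 are expressed in the ventral neural tube, where Sonic hedgehog signalling and mutual repression divide the progenitors into domains, and Nkx2-2 and Nkx6-1 serve again in pancreatic beta cells. Nkx2-1 specifies thyroid, lung and ventral forebrain, Nkx2-5 the heart, Nkx2-3 spleen and gut, Nkx3-2 the cartilage of the axial skeleton, and Nkx1-2 marks posterior progenitors at the tail end of the embryo. H2AK119ub1 is laid down by Polycomb repressive complex 1, to which PCGF5 can belong, and H3K27me3 by Polycomb repressive complex 2. Both marks typically cover CpG-rich promoters of developmental genes while these are silent.

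The sequences before 5 of the start sites are shown because they lie under peaks on which the account turns. All are on the minus strand of NCBIM37 (mm9), printed 5′ to 3′ with each CG dinucleotide in capitals. The first, chr5:42155736-42155950, is the stretch of 215 bases before the Nkx3-2 start that a Flag-PCGF5 peak of NPC covered. The second, chr5:33776773-33777072, lies 148 to 447 bases before the Nkx1-1 start under the single Flag-PCGF5 peak of that gene. The 300 bases before the starts of Nkx2-1 (chr12:57637896-57638195) and Nkx6-2 (chr7:146768697-146768996) differ in CG number, and chr12:57714722-57715021, 451 to 750 bases before the Nkx2-9 start, lies in the only H2AK119ub1 peak of that gene in wild type NPC.
Nkx3-2: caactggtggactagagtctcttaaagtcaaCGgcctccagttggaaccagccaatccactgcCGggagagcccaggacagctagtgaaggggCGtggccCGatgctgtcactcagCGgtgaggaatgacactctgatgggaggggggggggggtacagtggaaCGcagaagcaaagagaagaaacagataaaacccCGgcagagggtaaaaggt
Nkx1-1: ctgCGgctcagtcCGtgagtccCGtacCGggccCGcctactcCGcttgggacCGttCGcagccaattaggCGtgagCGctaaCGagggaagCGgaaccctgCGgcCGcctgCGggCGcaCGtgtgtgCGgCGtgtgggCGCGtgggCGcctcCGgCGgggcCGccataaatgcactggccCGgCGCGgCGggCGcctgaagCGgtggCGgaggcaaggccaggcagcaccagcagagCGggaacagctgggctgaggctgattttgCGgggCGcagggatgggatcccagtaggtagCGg
Nkx2-1: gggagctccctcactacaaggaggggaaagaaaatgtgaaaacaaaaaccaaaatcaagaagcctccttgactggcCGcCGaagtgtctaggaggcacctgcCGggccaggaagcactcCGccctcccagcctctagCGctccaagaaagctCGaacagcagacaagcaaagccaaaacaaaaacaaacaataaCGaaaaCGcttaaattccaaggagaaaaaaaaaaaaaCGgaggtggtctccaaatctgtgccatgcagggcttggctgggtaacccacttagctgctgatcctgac
Nkx6-2: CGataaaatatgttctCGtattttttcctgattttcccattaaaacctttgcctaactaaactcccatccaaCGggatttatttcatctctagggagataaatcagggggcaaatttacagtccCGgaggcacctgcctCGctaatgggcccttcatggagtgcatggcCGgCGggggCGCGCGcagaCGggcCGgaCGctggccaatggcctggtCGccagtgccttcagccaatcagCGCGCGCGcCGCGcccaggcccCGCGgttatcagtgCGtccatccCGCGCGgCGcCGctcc
Nkx2-9: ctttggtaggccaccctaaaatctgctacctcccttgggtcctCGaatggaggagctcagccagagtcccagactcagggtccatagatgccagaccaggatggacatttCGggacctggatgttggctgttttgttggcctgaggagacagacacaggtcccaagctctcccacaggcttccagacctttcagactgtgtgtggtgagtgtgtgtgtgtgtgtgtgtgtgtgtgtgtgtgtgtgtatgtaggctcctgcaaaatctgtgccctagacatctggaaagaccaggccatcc

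The stretches held 7 CG dinucleotides at Nkx3-2, 36 at Nkx1-1, 9 at Nkx2-1, 28 at Nkx6-2 and 2 at Nkx2-9. In the 300 bases directly before the start, the members held 8 to 36 CG dinucleotides with a median of 15, against a median of 10 over 22226 protein-coding genes and of 16 over 3479 genes with an H3K27me3 promoter peak in wild type NPC. The lowest number, 8, was that of Nkx2-5 and Nkx3-2 and the highest that of Nkx1-1. Nkx2-1 and Nkx2-2, with 9 each, also lay below the median of all genes. Set against the number expected from the C and G content, the median ratio was 0.525 for the members. It was 0.485 for all genes and 0.622 for the genes with an H3K27me3 peak, so by this measure the members lay nearer all genes.

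Nearly all members carried both Polycomb marks at the promoter in each of the 4 cell populations. H3K27me3 peaks lay in the promoter window of 10 of 10 members in wild type ES, PCGF5-depleted ES, wild type NPC and finally PCGF5-depleted NPC (100%, interval 72.2 to 100%). Over all genes the shares were 13.4%, 12.9%, 15.7% and 15.5%. H2AK119ub1 peaks were found at 9 members in wild type ES, 10 in PCGF5-depleted ES, 10 in wild type NPC, and 9 in NPC depleted of PCGF5, where 9 of 10 is 90% with an interval of 59.6 to 98.2%. The shares over all genes were 6.69%, 5.96%, 4.98% and 4.17%. The exceptions were Nkx1-2, with no H2AK119ub1 peak in wild type ES, and Nkx2-9, with none in PCGF5-depleted NPC. Both marks stood at the promoters of 9, 10, 10 and 9 members in the same order of populations, against 5.34%, 4.37%, 4.73% and 3.86% of all genes.

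**Figure D1:**
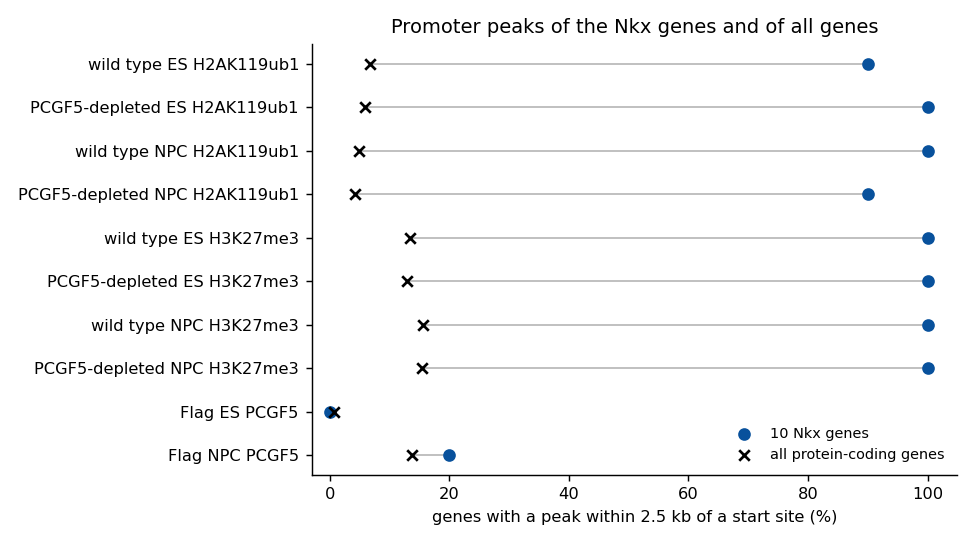
Share of genes (%, horizontal axis) with a peak within 2.5 kb of a start site in each of the 10 lists, for the 10 Nkx genes (circles) and for all 22232 protein-coding genes (crosses). The circles lie at 90 or 100% in all 8 histone lists, where the crosses lie between 4.17 and 15.7%, while in Flag-PCGF5 NPC the circle is at 20% and the cross at 13.7%.

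Nkx2-4, Nkx2-6 and Nkx6-3 had a promoter peak in fewer of the histone lists than any of the members. H2AK119ub1 was called at 0 of these 3 promoters in either ES list, and at those of Nkx2-4 and Nkx2-6 in the NPC of either genotype. H3K27me3 was called at the promoter of Nkx2-4 in both ES lists, at those of Nkx2-4 and Nkx2-6 in wild type NPC, and at all 3 in PCGF5-depleted NPC. Nkx6-3 had no H2AK119ub1 peak in its locus in any of the 4 lists. Where peaks were called, they could be as many as at the members, with 6 H2AK119ub1 promoter peaks at Nkx2-4 in wild type NPC, the same number as at Nkx1-1. Flag-PCGF5 was called at 1 of the 3 promoters in NPC, that of Nkx2-6, and at 0 in ES.

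The share of members with a Flag-PCGF5 promoter peak was near that of all genes. No member had a Flag-PCGF5 promoter peak in ES (0 of 10, interval 0 to 27.8%), where 0.787% of all genes did. In NPC the members with a peak were Nkx1-1 and Nkx3-2, which is 20% with an interval of 5.67 to 51.0%, beside 13.7% of all genes, so the share of members was close to the background. At Nkx3-2 (chr5:42152404-42155735) a peak of 327 bp and 4.18-fold enrichment over background reached from 215 bp before to 111 bp after the start, and another of 590 bp and 2.61-fold lay in the intron, 1458 to 2047 bp into the gene. The first ranked at the 95.9th percentile of its list by score. At Nkx1-1 (chr5:33773383-33776625) a single peak of 1880 bp covered the start, from 447 bp before it to 1432 bp after it, at 2.14-fold enrichment and the 28.5th percentile. In wild type NPC an H2AK119ub1 peak covered the start of Nkx1-1, while at Nkx3-2 the nearest began 405 bp inside the gene.

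The length of H3K27me3 was greater in NPC than in ES at every member and in both genotypes. Summed over the loci of the 10 genes, the peaks covered 19087 bp in wild type ES and 62140 bp in wild type NPC, a ratio of 3.26 or a log2 ratio of 1.70. In PCGF5-depleted cells the sums were 16306 bp and 51334 bp, a log2 ratio of 1.65. The NPC list was the longer for 10 of 10 members in each genotype, against 66.5% of the genes with a locus peak in wild type cells and 67.4% in PCGF5-depleted cells. Over the loci of all genes the log2 ratios were 1.19 and 1.11. The number of peaks at the members was lower in NPC than in ES in wild type cells, with 46 in ES and 36 in NPC, and higher in PCGF5-depleted cells, with 42 and 53. The median width was greater in NPC than in ES in either genotype, with 304.5 bp in ES and 677 bp in NPC in wild type and 294.5 and 609 bp in PCGF5-depleted cells. The median fold enrichment of these peaks was 4.37 in wild type ES and 5.52 in wild type NPC, and 5.07 and 4.89 in the PCGF5-depleted lists.

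The genes with the longest H3K27me3 cover in wild type NPC were Nkx2-2 and Nkx2-3. The locus of Nkx2-2 was 16698 bp and those of the other members 5001 to 9588 bp. Its gene record reaches upstream of the start used here, at 147012138. In the promoter window alone Nkx2-2 had 4262 bp in wild type NPC, beside a median of 4644 bp over the members. At Nkx2-2 (chr2:147003282-147019979), the longest of the genes, the peaks summed to 1843 bp in wild type ES, 3177 bp in PCGF5-depleted ES, 10239 bp in wild type NPC, and 9676 bp in NPC depleted of PCGF5. Both NPC values lay above both ES values. Nkx2-3 (chr19:43686815-43690381) had 1832, 2915, 10017 and 3701 bp in the same order. In wild type NPC this was 1 peak of 10017 bp from 3342 bp before the start to 6674 bp after it, past the end of the gene, while PCGF5-depleted NPC had 2 peaks of 1523 and 2178 bp in the locus and a further peak of 2766 bp whose centre lay 3865 bp after the start, beyond the gene's end and so outside the locus. Counted by the bases that fell inside the locus, Nkx2-3 had 6067 bp in wild type and 5677 bp in PCGF5-depleted NPC, values much closer to each other than the sums by centre.

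Nkx1-1 was likewise covered by a single H3K27me3 peak in wild type NPC, of 8728 bp with 11.1-fold enrichment, the highest fold of any member peak in that list. Its sums were 5070 bp in wild type ES, 2288 bp in PCGF5-depleted ES, 8728 bp in wild type NPC, and 6494 bp in NPC depleted of PCGF5. Nkx1-1 held the most H3K27me3 of all members in wild type ES. In PCGF5-depleted NPC it was covered by 3 peaks, of which the longest spanned 5356 bp, the widest H3K27me3 peak at any member in that list.

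The heart gene Nkx2-5 (chr17:26975609-26978510) had H3K27me3 sums of 1650, 2070, 5413 and 5696 bp in wild type ES, PCGF5-depleted ES, wild type NPC and finally PCGF5-depleted NPC. Its NPC values differed little between genotypes, but the wild type cover was 1 peak and the PCGF5-depleted cover 3 peaks, one of them with 10.2-fold enrichment. Nkx2-1 (chr12:57632922-57637895) had 2266, 1122, 5684 and 4534 bp, so within either stage the PCGF5-depleted value was the lower. Nkx3-2 had 1430, 522, 3884 and 3954 bp, with the lowest value in PCGF5-depleted ES and nearly equal values in the NPC lists.

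Among the ventral neural tube genes, Nkx6-1 (chr5:102087158-102094245) had H3K27me3 sums of 2875, 2273, 6255 and 7286 bp in the same order. Nkx6-2 (chr7:146765276-146768696), a close relative, had 799, 959, 5026 and 3653 bp. Nkx2-9 (chr12:57712376-57714271) had 953, 435, 3134 and 2139 bp, the lowest sum of any member in both NPC lists. All 3 had H3K27me3 over the locus at day 6 of neural differentiation, as did Nkx2-2.

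Nkx1-2 (chr7:139786560-139791320), the gene of posterior progenitors, had the least H3K27me3 of the members in wild type ES, 369 bp in 2 peaks. It had 545 bp in PCGF5-depleted ES, 3760 bp in wild type NPC, and 4201 bp in NPC depleted of PCGF5. Both marks were thus sparse at this gene in ES, since its H2AK119ub1 sums were 0 and 229 bp there, and longer in NPC, with 1389 bp in wild type and 833 bp in PCGF5-depleted cells.

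**Figure D2:**
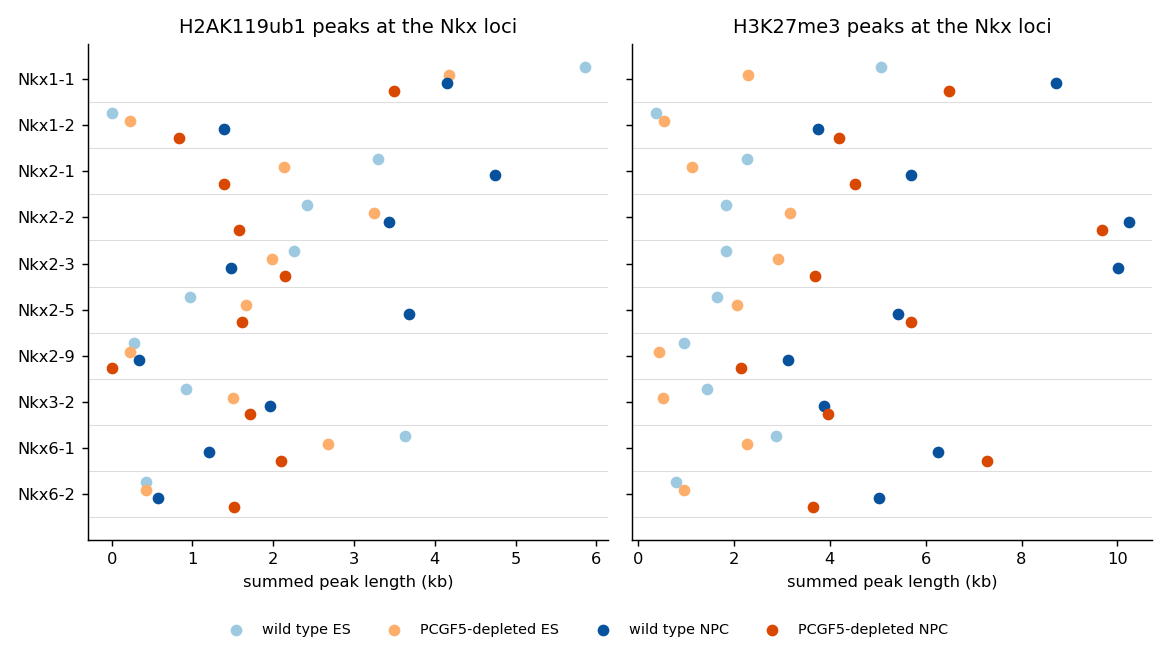
Summed length of peaks (kb, horizontal axis) at the locus of each of the 10 Nkx genes, for H2AK119ub1 (left) and H3K27me3 (right), with 1 point per library and no replicates. For H3K27me3 both NPC points lie to the right of both ES points at all 10 genes, while the H2AK119ub1 points of the populations are intermixed.

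H2AK119ub1 showed no such common shift between stages. In wild type cells the member sums were 20041 bp in ES and 22960 bp in NPC, a log2 ratio of 0.20, and the NPC value was the longer at 7 of 10 members, against 33.8% of all genes with a peak. In PCGF5-depleted cells the sums were 18268 and 16388 bp, a log2 ratio of -0.16, with the NPC value longer at 4 of 10 members, against 29.6%. Over all loci the log2 ratios were -0.18 and -0.75. The direction in PCGF5-depleted cells turned to 0.15 with a promoter window of 1000 bp, to 0.07 with the higher-scoring 50% of each list and to 0.44 with lists of equal number.

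Single members differed widely in H2AK119ub1. Nkx1-1 had the longest peaks in wild type ES, 5854 bp, with 4177 bp in PCGF5-depleted ES, 4144 bp in wild type NPC, and 3491 bp in NPC depleted of PCGF5. Nkx2-1 had 3297, 2131, 4747 and 1396 bp in that order, so wild type NPC was the highest and PCGF5-depleted NPC the lowest. Nkx2-5 had 974, 1665, 3679 and 1612 bp, again highest in wild type NPC. These 3 genes and Nkx2-2, with 2412, 3247, 3438 and 1581 bp, gave the larger part of the H2AK119ub1 in the wild type NPC sum.

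Other members had a different order of levels. Nkx6-1 had 3626, 2677, 1204 and 2095 bp, with both ES values above both NPC values. Nkx2-3 had 2254, 1987, 1479 and 2150 bp, and wild type NPC was its lowest value by this assignment. Wild type NPC peaks of 1232 and 701 bp reached into its locus but had their centres outside. The order of its NPC values therefore depended on the assignment by centre. Nkx3-2 had 920, 1503, 1963 and 1712 bp, within a narrow range after wild type ES. Nkx6-2 had 422, 428, 578 and 1518 bp, and PCGF5-depleted NPC, where a peak of 848 bp covered the start, was its highest. Nkx2-9 had 282, 224, 339 and 0 bp, and its single peak lay after the start in wild type ES but before it in PCGF5-depleted ES and wild type NPC.

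With PCGF5 depleted, the members' locus sums were shorter in all 4 pairs of lists, by less than the loci of all genes for H2AK119ub1. The log2 ratio for H2AK119ub1 was -0.13 in ES and -0.49 in NPC, beside -0.36 and -0.92 over the loci of all genes. The median fold of the members' H2AK119ub1 peaks was 5.02 in wild type and 4.07 in PCGF5-depleted ES, and 4.50 and 5.32 in NPC. The PCGF5-depleted NPC list was the shortest of the histone lists, with 3845 peaks against 5754 in wild type NPC, a log2 ratio of covered length of -1.05 over the whole list. For H3K27me3 the member ratios were -0.23 in ES and -0.28 in NPC, beside -0.22 and -0.29 over all loci. The NPC sums were 62140 bp in wild type and 51334 bp in PCGF5-depleted cells. Nkx2-3 differed most there, with 10017 and 3701 bp, and its difference depended on the assignment by centre. The NPC ratio without Nkx2-3 was not computed. Without Nkx1-1, the H3K27me3 sums in ES were 14017 bp in wild type and 14018 bp in PCGF5-depleted cells, so that ratio rested on 1 gene. The same held for H2AK119ub1 in ES, where the sums without Nkx1-1 were 14187 and 14091 bp, a log2 ratio of -0.0098.

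The direction was mixed from member to member. H2AK119ub1 was shorter in PCGF5-depleted cells at 5 of 10 members in ES, where 56.3% of all genes with a peak were shorter, and at 7 of 10 in NPC, where 58% were. H3K27me3 was shorter at 5 of 10 in ES and 6 of 10 in NPC, beside 54.8% and 61.1%. These counts were near those of all genes. The difference between genotypes had opposite signs in ES and NPC at 6 members for H2AK119ub1 and at 5 for H3K27me3, beside 55.9% and 46.5% of all genes with a difference at both stages. The NPC comparison between genotypes and the comparison of stages share the wild type NPC list, so their values are not independent of each other.

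For H2AK119ub1, the peaks beyond the loci, within 25 kb of either end of the gene, differed more between genotypes than those inside. This measure was added after the peaks had been seen. In wild type NPC 64 H2AK119ub1 peaks lay in these flanks and covered 33996 bp, at 9 of the 10 members. In PCGF5-depleted NPC there were 13 peaks of 3133 bp at 5 members, a ratio of 10.9 and a log2 ratio of -3.44. Over all genes with an H2AK119ub1 locus peak in either list the log2 ratio of the flanks was -1.49. The flanks were shorter in PCGF5-depleted NPC at 8 members and longer at 1, Nkx2-2, against 71.8% of all genes with a flank peak that were shorter. With lists cut to equal numbers by score, the log2 ratio was -3.25. The median fold of the flank peaks was 5.04 in wild type and 5.19 in PCGF5-depleted NPC.

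The members with the longest flanks were Nkx2-1, Nkx2-3, Nkx3-2 and Nkx2-5, which held 91.8% of the H2AK119ub1 flank length of wild type NPC. At Nkx2-1 they covered 11988 bp in 14 peaks in wild type cells and 354 bp in 2 peaks in PCGF5-depleted cells. Nkx2-3 had 9628 and 1153 bp, Nkx3-2 had 5031 and 306 bp, and Nkx2-5 had 4570 and 355 bp. At Nkx2-1 and Nkx3-2 the peaks lay mostly downstream of the start, with 10371 of the 11988 bp at Nkx2-1 and all of the 5031 bp at Nkx3-2. At Nkx2-3 and Nkx2-5 they lay mostly upstream, with 8630 and 3502 bp there.

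At the ventral genes the flanks were short in both genotypes. At Nkx2-2 the upstream flank began farther from the start than at the other members, since the gene record reaches past that start. Its values cannot be set directly beside theirs. Nkx6-1 had 1190 and 0 bp in wild type and PCGF5-depleted NPC, Nkx2-9 had 630 and 0 bp, Nkx2-2 had 614 and 965 bp, and Nkx6-2 had 158 and 0 bp. Nkx1-1 had 187 and 0 bp, and Nkx1-2 had no H2AK119ub1 peak in its flanks in any list. None of the H2AK119ub1 flank peaks of the NPC lists had its centre in the locus of another protein-coding gene.

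**Figure D3:**
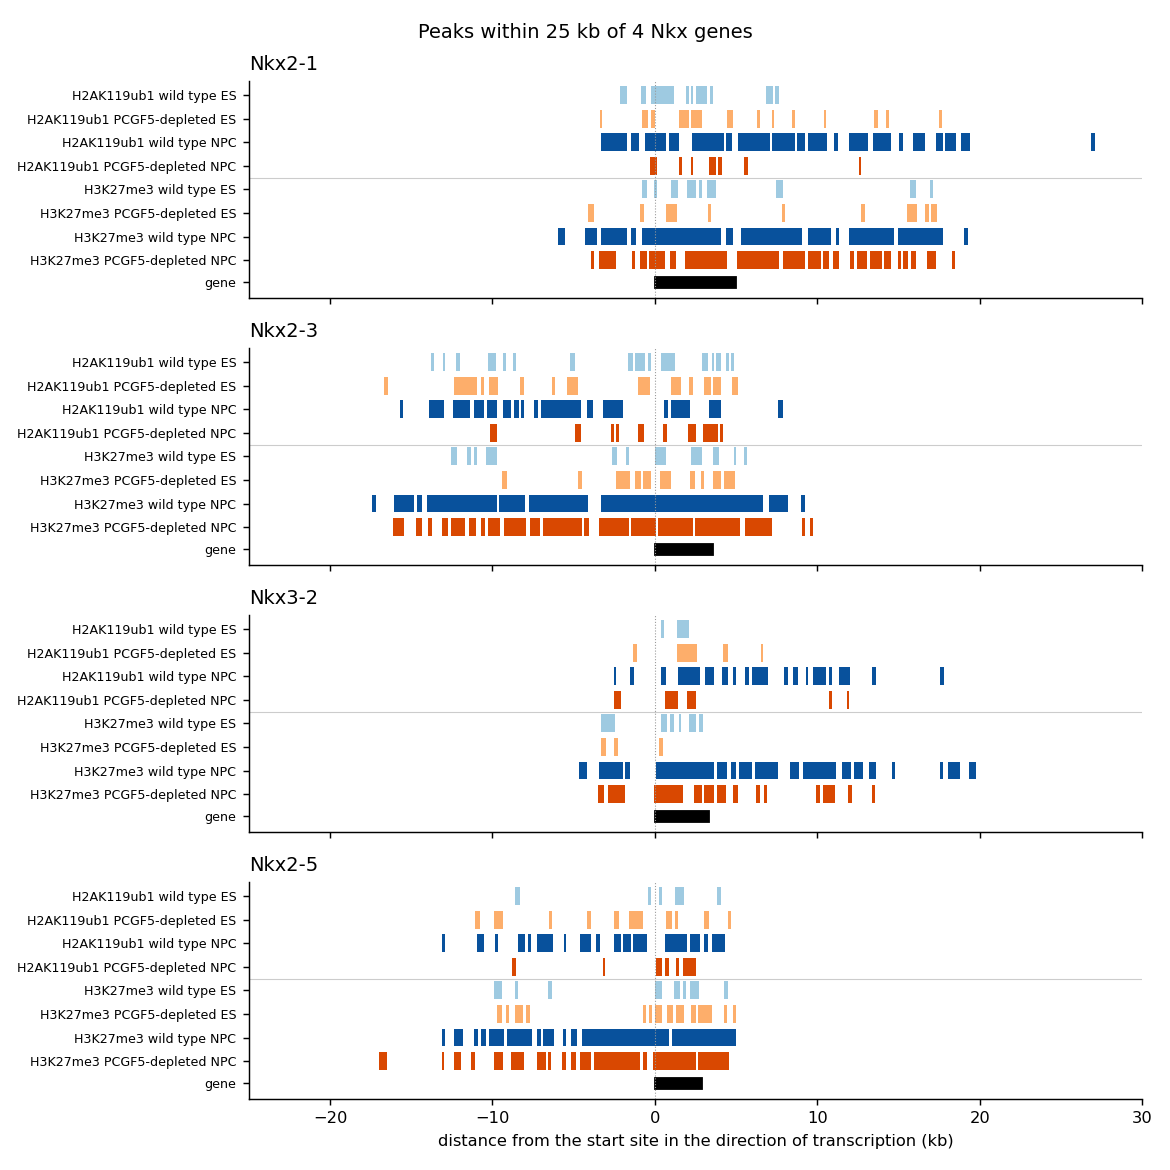
H2AK119ub1 and H3K27me3 peaks (bars, to scale) in the 8 histone lists around Nkx2-1, Nkx2-3, Nkx3-2 and Nkx2-5, against the distance from the start site in the direction of transcription (kb), with the gene as a black bar. The wild type NPC row of H2AK119ub1 shows runs of peaks downstream of Nkx2-1 and Nkx3-2 and upstream of Nkx2-3 and Nkx2-5, which are sparse in the PCGF5-depleted NPC row.

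In ES the summed flanks went the other way. They did so over all genes with an H2AK119ub1 locus peak in either list too, where the log2 ratio was 0.14. Wild type ES had 9811 bp of H2AK119ub1 in 36 flank peaks and PCGF5-depleted ES 13993 bp in 49, a log2 ratio of 0.51, with 2 members shorter and 7 longer in PCGF5-depleted cells, while 54.8% of all genes with a flank peak were shorter. From ES to NPC the flank sum was higher in wild type cells, with a log2 ratio of 1.79, and lower in PCGF5-depleted cells, with -2.16. Of the members' H2AK119ub1 length within 25 kb, the loci held 67.1% in wild type ES, 56.6% in PCGF5-depleted ES, 40.3% in wild type NPC, and 84.0% in NPC depleted of PCGF5. The lowest and the highest share were thus those of the NPC genotypes.

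H3K27me3 was called in the flanks of the NPC of both genotypes. Its flank sums were 57125 bp in wild type and 44015 bp in PCGF5-depleted NPC, a log2 ratio of -0.38, with 6 members shorter and 3 longer, against 52.2% of all genes with a flank peak that were shorter. In ES they were 11198 and 10196 bp, with 5 members shorter and 4 longer, against 49.3%. Of the 64 H2AK119ub1 flank peaks of wild type NPC, 59 overlapped an H3K27me3 peak of wild type NPC and 49 an H3K27me3 peak of PCGF5-depleted NPC, whereas 9 overlapped an H2AK119ub1 peak of PCGF5-depleted NPC. These were 92.2%, 76.6% and 14.1% of the flank peaks, beside 81.3%, 70.6% and 26.0% of the whole wild type NPC list, so the same order was found over all peaks. An overlap was 1 bp or more. At Nkx3-2 H3K27me3 was the shorter too, with 10705 and 3124 bp in the flanks, while at Nkx2-3 the flank sums were 12799 and 15224 bp. The order at Nkx2-3 depended on the assignment by centre, which counted the wild type peak of 10017 bp to the locus, and over the locus and flanks together the sums were 22816 bp in wild type and 18925 bp in PCGF5-depleted NPC.

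**Figure D4:**
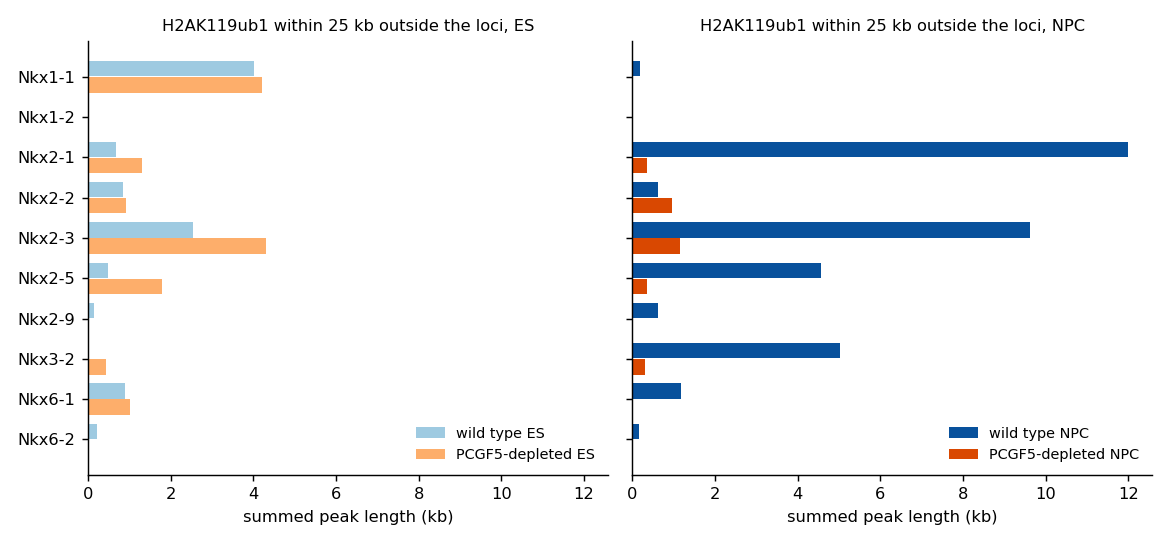
Summed length of H2AK119ub1 peaks (kb, horizontal axis) within 25 kb of each of the 10 Nkx genes but outside the locus, in ES (left) and NPC (right), with 1 library per bar and no replicates. In NPC the wild type bars of Nkx2-1, Nkx2-3, Nkx3-2 and Nkx2-5 stand for 4570 to 11988 bp and the PCGF5-depleted bars of these genes for 306 to 1153 bp.

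At these genes a larger share of H2AK119ub1 peaks overlapped H3K27me3 than in the lists as a whole. In wild type ES 65% of the 40 H2AK119ub1 peaks at the loci overlapped an H3K27me3 peak (interval 49.5 to 77.9%), against 38.8% of the whole list, and in PCGF5-depleted ES 46.5% of 43 did (32.5 to 61.1%), against 27.6%. In NPC the shares were 93.8% of 48 peaks in wild type (83.2 to 97.9%), against 81.3%, and 97.4% of 39 peaks in PCGF5-depleted cells (86.8 to 99.5%), against 74.5%. The interval of the members lay above the share of the list in all 4 populations, though peaks of 1 locus are not independent of each other.

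Peaks also recurred at the same places across lists. Of the wild type H2AK119ub1 peaks at the members, 65% in ES and 45.8% in NPC overlapped a peak of the PCGF5-depleted list of that stage, against 25.2% and 26.0% of the whole lists. For H3K27me3 the shares were 63.0% in ES and 86.1% in NPC, against 35.1% and 58.5%. From ES to NPC, 97.8% of the 46 wild type H3K27me3 peaks at the members overlapped an NPC peak, against 43.0% of the list, and 52.5% of the H2AK119ub1 peaks did, against 16.4%. The members' H3K27me3 peaks in wild type NPC were also wider than those of the list, with medians of 677 and 453 bp, and the part of width in these shares was not tested.

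The genes that act with the Nkx factors carried the same marks at most of their promoters. In a list of 25 genes of neural tube patterning, H3K27me3 promoter peaks were found at 22 in both ES lists and 21 in both NPC lists, and H2AK119ub1 peaks at 13 in wild type ES, 15 in PCGF5-depleted ES, 16 in wild type NPC, and 15 in NPC depleted of PCGF5. In a list of 18 partners in heart, thyroid, pancreas, spleen and skeleton, such as the cardiac factors Tbx5 and Gata4 and the pancreatic factor Pdx1, H3K27me3 was found at 17, 14, 18 and 18 and H2AK119ub1 at 14, 13, 16 and 12. Over all genes the shares were 12.9 to 15.7% for H3K27me3 and 4.17 to 6.69% for H2AK119ub1. Flag-PCGF5 in NPC lay at 7 of the 25 and 1 of the 18, beside 13.7% of all genes.

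The organ partners had H2AK119ub1 locus sums in NPC of 68829 bp (wild type) and 16542 bp (PCGF5-depleted), a log2 ratio of -2.06, with 15 of 18 shorter and 1 longer. Over all genes with a peak 58% were shorter, and the log2 ratio over all loci was -0.92. Gata4 had 15551 and 2726 bp, Tbx5 9367 and 1138 bp, and Pdx1 5412 and 328 bp. The neural tube genes had 74465 and 27993 bp, a log2 ratio of -1.41, with 13 of 25 shorter, 5 longer and 7 equal. Shh, the ligand of the ventral midline, had 3102 and 1379 bp, and Olig2, a motor neuron progenitor factor, had 2827 and 2328 bp. At the loci alone, the ratio of the Nkx genes, -0.49, was the nearest to 0 of the 3 groups, which differ in gene length. This order need not hold beyond the loci. With the flanks of 25 kb included, the Nkx sums were 56956 bp in wild type and 19521 bp in PCGF5-depleted NPC. No flank sums were made for the partner and neural tube lists.

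Of all other protein-coding genes, the nearest to the mean promoter profile of the members, by Euclidean distance over the log10 of the promoter peak length plus 1 bp in the 8 histone lists, were Emx2, Hrk, Foxd1, Irx4 and Dlx3, at distances of 0.32 to 0.44. Nkx2-2 was the member closest to the mean, at 0.45, and Nkx1-2 and Nkx2-9 the farthest, at 2.95 and 3.00, each with an H2AK119ub1 list in which no peak was called.

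The cell populations were checked by the repressive marks at marker promoters, since peak lists hold no expression. Of 7 pluripotency markers, H3K27me3 lay at 1, 1, 4 and 3 and H2AK119ub1 at 1, 1, 3 and 2, in wild type ES, PCGF5-depleted ES, wild type NPC and finally PCGF5-depleted NPC. Of 7 neural precursor markers, 5 had H3K27me3 in wild type ES, PCGF5-depleted ES and wild type NPC and 6 in PCGF5-depleted NPC, and H2AK119ub1 lay at 4, 5, 2 and 6. Of 5 markers of feeder fibroblasts, H3K27me3 lay at 2, 4, 3 and 3 and H2AK119ub1 at 1, 1, 2 and 2. Thus neural markers held both marks most often in PCGF5-depleted NPC, and the part of cell composition in the values above was not tested.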

How the data were processed

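Histone chromatin was prepared with micrococcal nuclease and light fixation, Flag chromatin by crosslinking and sonication. The methods state that the authors trimmed reads (Trimmomatic), aligned them to mm9 (Bowtie2), dropped duplicates (Picard) and ran MACS2 2.1.0 on single libraries. A Drosophila spike-in scaled the authors' signal densities, not the peaks, so peak lengths also depend on depth and background, which are unknown.

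Each deposited list gives per peak a score, a fold enrichment and the −log10 of the p-value and of the q-value. The authors' score was used only to rank peaks within a list, the deposited −log10 q-value only to filter, and the deposited fold only as a description.

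Groups were taken from the labels. Peaks were assigned to genes by their centre with Python 3.11.15 and pandas 2.3.3, lengths are the summed full widths of the assigned peaks, and a name on several records (134 names) kept all of them. All 86279 peaks lay within the chromosomes of NCBIM37, and the assignment was tested on simulated data. The members, lists and comparisons were chosen with earlier results of these data known. All 10 members are named in every list. Markers or genes without a matching name, Sox1 and Tfcp2l1, were not analysed here, and a further gene of the named lists is not reported here. Alternatives were another assignment by any overlapping base, a window of 1000 bp, the higher-scoring 50% of each list, a q-value under 0.05, equal numbers of peaks and leaving out the longest member.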

Additional observations from a re-analysis of the deposited data

Results flagged for a closer look

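The H2AK119ub1 flanks of the Nkx genes, within 25 kb but outside the loci, had a log2 ratio of PCGF5-depleted to wild type cells of 0.51 in ES and -3.44 in NPC, a difference of -3.95. The directions were opposite between the stages, as they were over all genes with a locus peak, where the log2 ratios were 0.14 and -1.49. With 1 library per group the difference was not tested.

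The H2AK119ub1 sums at the loci had a log2 ratio of NPC to ES of 0.20 in wild type and -0.16 in PCGF5-depleted cells, a difference of -0.35. This difference was not tested either, and the sign in PCGF5-depleted cells turned under 3 of the alternatives. At 6 of the 10 members the H2AK119ub1 difference between genotypes had opposite signs at the 2 stages, and at 5 of 10 the H3K27me3 difference did. Among the 6 was Nkx2-3, whose H2AK119ub1 sign in NPC depended on the assignment by centre. The shares over all genes with a difference at both stages were 55.9% and 46.5%, so the members were near the background.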

How the results depend on the processing

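No paired analysis was possible because each group had 1 library and the labels give no replicate numbers. The counts of members with a promoter peak stayed within 1.5 times of the reported value in 46 of 50 alternatives. The exceptions were H2AK119ub1 in PCGF5-depleted ES, 6 members with the higher-scoring 50% of peaks, H3K27me3 in wild type NPC, 5 members with a window of 1000 bp, where the centres of long peaks lay outside it, and Flag-PCGF5 in NPC, 1 member with the higher-scoring 50% and 1 with equal numbers. Of 72 alternatives for the log2 ratios 64 kept their direction and moved by less than 1.5 times. The NPC to ES ratio of H2AK119ub1 in PCGF5-depleted cells turned to 0.15 (window of 1000 bp), 0.0748 (higher-scoring 50%) and 0.44 (equal numbers), and that of H3K27me3 in these cells was 2.54 with the higher-scoring 50%. Without Nkx1-1, the H3K27me3 ratio of PCGF5-depleted to wild type ES was 0.000103 and that of H2AK119ub1 -0.0098. The settings for the flanks were chosen after seeing the data. There, the ratio in NPC for H2AK119ub1 was -4.17 with the higher-scoring 50%, -3.06 for flanks of 10 kb, -3.44 for 50 kb and -2.99 without Nkx2-1, and the H3K27me3 ratio in ES, -0.14, turned to 0.82 with the higher-scoring 50% and 0.0652 for flanks of 10 kb. Single members' lengths moved by less than 1.5 times in 338 of 400 alternatives. The cause of these shifts was not tested. Depth is unknown, so the limit it sets on calling a peak is too.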
